A study of Homo sapiens with 12 samples.

Results

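The 8 E2F transcription factor genes E2F1 to E2F8 and the 2 E-type cyclin genes CCNE1 and CCNE2 were followed in SUM149PT cells, an established breast cancer cell line, after inhibition of the kinase AKT, of the histone methyltransferase EZH2, or of both. The genes were chosen by name, and these 10 stood among 23228 genes in the count files. All 10 passed the filter on low counts that left 14874 genes for testing. PolyA RNA was sequenced from 12 libraries in 4 groups of 3 replicates, lettered A, B and C. Every group began on day -5 in DMSO or in 5 µM tazemetostat, the EZH2 inhibitor. Passages followed on day -3 and day -1, the last with 250000 cells to a 6 cm dish. On day 0 all 4 groups were moved to medium with 2% serum. The DMSO group received no inhibitor. The ipatasertib group had been held in DMSO and then received 5 µM ipatasertib, the AKT inhibitor. The tazemetostat group continued in 5 µM tazemetostat, and the combination group had tazemetostat throughout with 5 µM ipatasertib added on day 0. RNA was taken 24 h later in all groups. Exposure to tazemetostat was therefore days longer than exposure to ipatasertib. All libraries came from a single cell line, and the labels do not say that replicates were separate cultures. The p-values therefore set group differences only against the spread among these samples, and that spread may be technical.

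E2F proteins bind DNA, mostly as dimers with a DP partner, and control genes for the entry into S phase. In resting cells RB and its relatives p107 and p130 hold E2F proteins in check, and cyclin D with CDK4 or CDK6 and then cyclin E with CDK2 phosphorylate RB and free them. E2F1, E2F2 and E2F3 are the classical activators, E2F4 and E2F5 work mainly with the pocket proteins as repressors, E2F6 represses without them, and E2F7 and E2F8 repress without a DP partner. Cyclin E genes and several E2F genes are themselves E2F targets, which gives the network feedback in both directions. In breast tumours RB loss and extra copies of CCNE1 are known routes to unrestrained entry into S phase.

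The sequences just upstream of the start sites are shown for 3 genes in which an E2F-type word was found, and for E2F7 and CCNE1, which moved the most with ipatasertib and tazemetostat respectively and hold no such word. Each run is the 100 bases from -100 to -1, 5′ to 3′ on the gene's strand, from RefSeq on GRCh38.p14. Capitals mark the words TTTCCCGC, TTTCGCGC, TTTGGCGC or TTTGCCGC, searched on both strands.
E2F1, chr20:33686386-33686485, minus strand: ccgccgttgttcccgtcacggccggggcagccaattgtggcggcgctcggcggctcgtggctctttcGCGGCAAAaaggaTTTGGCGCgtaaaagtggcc
E2F2, chr1:23531234-23531333, minus strand: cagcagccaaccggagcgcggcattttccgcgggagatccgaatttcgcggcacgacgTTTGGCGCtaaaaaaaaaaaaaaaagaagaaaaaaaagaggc
E2F3, chr6:20401779-20401878, plus strand: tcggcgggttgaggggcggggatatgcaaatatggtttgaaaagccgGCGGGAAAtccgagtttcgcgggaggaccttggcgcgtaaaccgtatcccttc
E2F7, chr12:77065570-77065669, minus strand: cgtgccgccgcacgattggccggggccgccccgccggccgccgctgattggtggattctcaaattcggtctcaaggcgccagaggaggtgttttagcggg
CCNE1, chr19:29811891-29811990, plus strand: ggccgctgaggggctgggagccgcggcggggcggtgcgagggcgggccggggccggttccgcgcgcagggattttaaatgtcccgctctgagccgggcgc
The table of promoters, which spans 250 bases before to 50 after each start, held 7 of the 10 genes, with 2 entries for E2F3. E2F5, E2F8 and CCNE2 had no entry. E2F1 held 2 E2F-type words, at -33 to -26 on the opposite strand and at -20 to -13. E2F2 held 1 at -42 to -35, and the upstream entry of E2F3 held 1 at -53 to -46 on the opposite strand. Any of the 4 words occurred in 3.31% of 35116 promoters of the same length, and in 12 of 22 G1/S target genes with an entry. The CCAAT word stood 4 times in E2F7, 3 times in E2F1 and 4 times in the upstream E2F3 entry. The entries of E2F2, E2F4, E2F6 and CCNE1 and the other E2F3 entry held 0. Of all promoters 34.6% held at least 1 such word, which is a share of promoters and not a count of words. A match describes letters only and shows no binding.

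Libraries held 22355242 to 49970540 counts assigned to genes, so a count of 3, taken as the floor, was worth 0.0602 to 0.130 CPM, the counts of a gene scaled to a library of fixed size. Each CPM is scaled by the library total after TMM (trimmed mean of M-values) normalisation. The libraries tazemetostat A and combination B differed more from their replicates than others did: chi-square per degree of freedom was 17.3 to 19.1 and 14.4 to 24.9 in their pairs, against 2.64 to 6.68 in the other 8 pairs. The share of reads assigned to no gene was 19.7% ± 0.764 (SD, n = 3) in the DMSO group, 24.6% ± 0.961 in the ipatasertib group, 18.4% ± 0.501 in the tazemetostat group and 23.8% ± 0.923 in the combination group, and its part in the results was not tested. All 7 breast epithelial markers passed the filter, among them EPCAM at 311 to 343 CPM in the group means. Of the 7, 6 fell and 0 rose with ipatasertib against DMSO, beside 28.7% and 25.4% of all genes. KRT5 stood at 633 CPM with DMSO, 146 with ipatasertib, 480 with tazemetostat and 54.6 with both drugs. PGR had 0 counts in the DMSO and ipatasertib groups. Summed epithelial markers ranged from 3229 to 3375 CPM under DMSO, 1709 to 1856 under ipatasertib, 2675 to 2951 under tazemetostat and 1603 to 1679 under the combination. Of 12 markers of blood, endothelium and fibroblasts, 8 passed. Their sum was 453 to 514, 422 to 435, 297 to 335 and 255 to 292 CPM in the same order. Most of it was CD68, at 377, 278, 282 and 239 CPM in the group means, and DCN, at 98.8, 131, 24.6 and 30.7. CD3E, LYZ and VWF were among those that did not pass the filter. The part of these shifts in the results was not tested. Scaling by total counts alone moved the median change of all genes up by 0.12 on the log2 scale for ipatasertib and by 0.14 for the combination against DMSO. With that scaling the share of calls that were higher went from 46.9% to 63.1% for ipatasertib, from 54.6% to 69.6% for tazemetostat and from 51.4% to 62.6% for the combination, each against DMSO, and from 51.6% to 27.8% for the interaction.

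**Figure D1:**
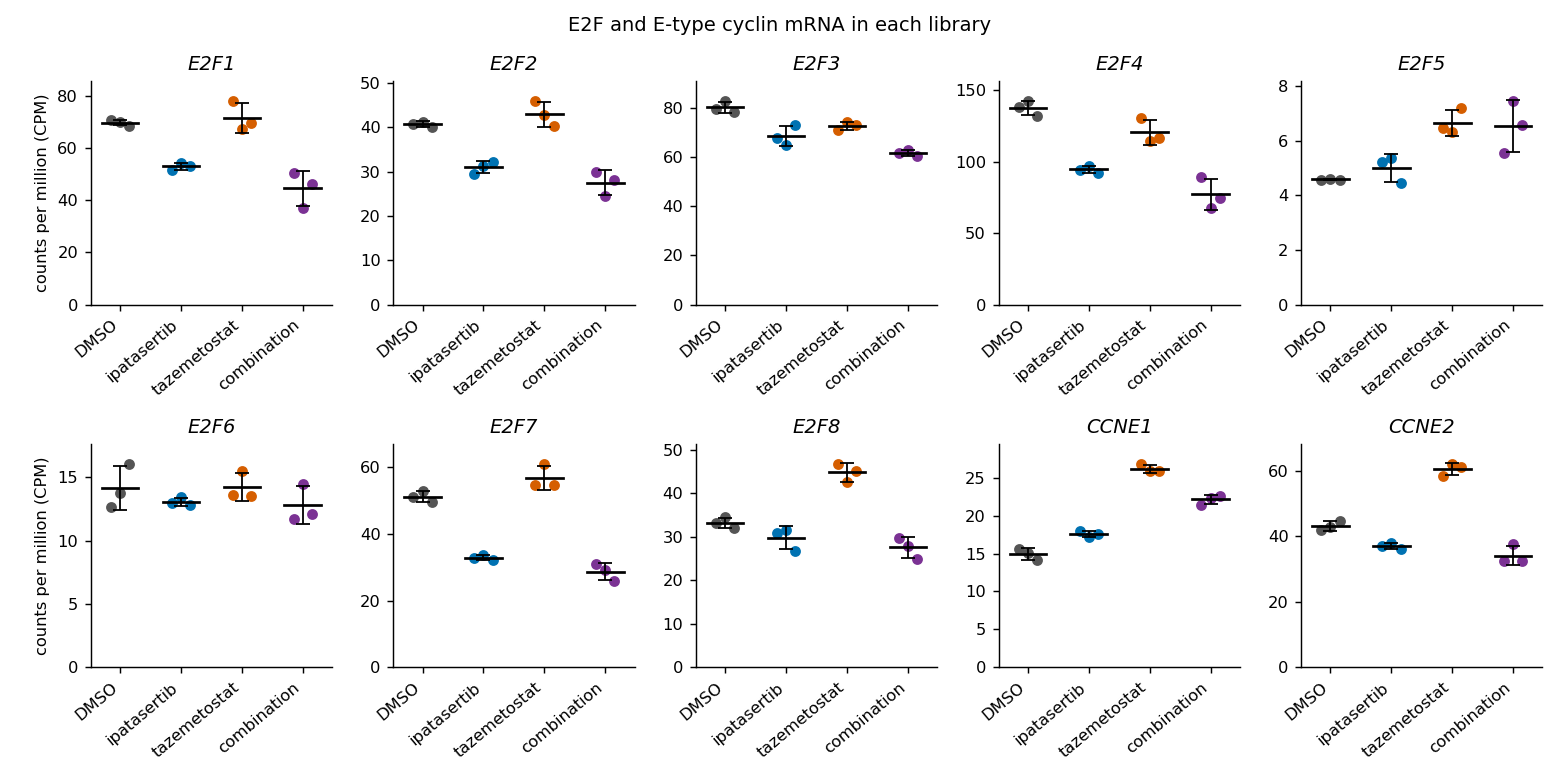
Level of each gene in CPM (vertical axis, starting at 0) in the 3 libraries of each of the 4 groups (points, replicates A to C from left to right), with the group mean (wide bar) and SD (whiskers). E2F7 libraries with ipatasertib or the combination lie between 26.0 and 33.7 CPM, below all DMSO and tazemetostat libraries, whereas CCNE1 is lowest in the DMSO libraries.

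E2F1, the best known activator, read 70.6, 70.0 and 68.5 CPM in the DMSO libraries A to C, 51.6, 54.3 and 52.9 with ipatasertib, 77.8, 67.1 and 69.5 with tazemetostat, and 50.3, 37.1 and 46.2 with both drugs. DMSO and tazemetostat libraries overlapped, and all 6 libraries with ipatasertib lay below them. The change with ipatasertib against DMSO was -0.40 on the log2 scale (SE 0.08, adjusted p = 0.000523, quasi-likelihood test of edgeR, adjusted by Benjamini-Hochberg over 14874 genes, as for all adjusted p-values here unless another tool is named). With the combination it was -0.65 (SE 0.08, adjusted p = 1.24e-06), which is 36.1% lower. Tazemetostat alone gave 0.04, with a 95% interval of -0.14 to 0.21, and -0.05 without tazemetostat A and combination B. Adding tazemetostat to ipatasertib gave -0.25 (SE 0.09, adjusted p = 0.0281), a value that was -0.14 without combination B (adjusted p = 0.114). The call was also lost with only the libraries compared (adjusted p = 0.0693), without ipatasertib B (0.0742) and without ipatasertib C (0.0652).

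E2F2, the second activator, read 40.8, 41.3 and 40.1 CPM with DMSO, 29.6, 31.4 and 32.1 with ipatasertib, 45.8, 42.8 and 40.2 with tazemetostat, and 29.9, 24.4 and 28.0 with both drugs. Its order of groups was that of E2F1, and the ipatasertib and combination libraries overlapped. E2F2 fell by 0.40 with ipatasertib (SE 0.08, adjusted p = 0.000194) and by 0.57 with the combination (SE 0.08, adjusted p = 1.56e-06). Neither tazemetostat against DMSO (0.08, adjusted p = 0.416) nor the combination against ipatasertib (-0.17, adjusted p = 0.0878) passed the threshold. DESeq2 called E2F2 lower in the latter (-0.20, adjusted p = 0.0464).

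E2F3, the third activator, whose locus makes a longer and a shorter protein from separate start sites, read 79.7, 82.6 and 78.3 CPM with DMSO. It read 67.5, 64.9 and 73.0 with ipatasertib, 70.8, 74.0 and 73.1 with tazemetostat, and 61.8, 62.8 and 60.2 with both drugs. The DMSO libraries were the highest and the combination libraries the lowest, without overlap with the groups between. Gene counts do not separate the forms. E2F3 fell by 0.23 with ipatasertib (SE 0.06, adjusted p = 0.00279) and by 0.38 with the combination (SE 0.06, adjusted p = 1.01e-05). The ipatasertib call was lost with total-count scaling (-0.11, adjusted p = 0.114). Tazemetostat alone gave -0.14 (95% interval -0.26 to -0.02, adjusted p = 0.0517), and DESeq2 called E2F3 lower there (-0.16, adjusted p = 0.0163). The combination against ipatasertib gave -0.15 (adjusted p = 0.0501), and DESeq2 called E2F3 lower there too (-0.18, adjusted p = 0.0105).

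E2F4, a repressor with the pocket proteins and partner of the DREAM complex, read 138, 142 and 132 CPM with DMSO, 94.5, 97.2 and 92.3 with ipatasertib, 131, 114 and 117 with tazemetostat, and 89.0, 67.9 and 74.6 with both drugs. The 4 groups did not overlap. E2F4 fell by 0.54 with ipatasertib (SE 0.08, adjusted p = 9.92e-06) and by 0.83 with the combination (SE 0.08, adjusted p = 1.33e-08), which is 43.9% lower. The further fall from ipatasertib to the combination was 0.29 (SE 0.08, adjusted p = 0.00616). Tazemetostat alone gave -0.19 (95% interval -0.35 to -0.03, adjusted p = 0.052), and -0.27 without the 2 libraries that stood apart (adjusted p = 7.03e-05). DESeq2 also called E2F4 lower with tazemetostat (-0.21, adjusted p = 0.0345).

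E2F5, also a partner of the pocket proteins, was low: 4.57, 4.60 and 4.58 CPM with DMSO, 5.22, 5.36 and 4.43 with ipatasertib, 6.45, 6.33 and 7.19 with tazemetostat, and 5.55, 7.44 and 6.59 with both drugs. Both groups with tazemetostat lay above all DMSO and ipatasertib libraries. E2F5 rose by 0.54 with tazemetostat (SE 0.11, adjusted p = 0.000791) and by 0.51 with the combination (SE 0.12, adjusted p = 0.000792) against DMSO. Ipatasertib gave 0.13, with a 95% interval of -0.12 to 0.39. The rise from ipatasertib to the combination was 0.37 (adjusted p = 0.0185) and was lost without ipatasertib C (adjusted p = 0.0906), combination B (0.0837) or combination C (0.0591). The gene overlaps C8orf59 on the opposite strand in GENCODE 29, and strand use in the counting is not given in the sources used here. C8orf59 itself changed by 0.40 with tazemetostat (adjusted p = 0.00204) and by 0.09 with the combination (adjusted p = 0.411). With strand use unknown, reads of the pair may be mixed, which was not tested.

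E2F6, which represses within Polycomb-like complexes, read 12.7, 13.8 and 16.1 CPM with DMSO, 13.0, 13.4 and 12.8 with ipatasertib, 13.6, 15.5 and 13.6 with tazemetostat, and 11.7, 14.5 and 12.1 with both drugs. Neighbouring groups in the order of means overlapped, and E2F6 passed the threshold in none of the 7 comparisons. At an unadjusted p under 0.05 it also passed in none. Without combination B it was called lower in the combination against DMSO (-0.22, adjusted p = 0.0489). With tazemetostat A left out as well it was called lower there (-0.22, adjusted p = 0.0346) and in the combination against tazemetostat (-0.24, adjusted p = 0.0322). The 95% interval of the change with the combination against DMSO was -0.36 to 0.06. E2F6 has 4 annotated pseudogenes, E2F3 2 and E2F4 1, none of them listed in the count files.

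E2F7, an atypical repressor and target of the activators, read 51.0, 52.9 and 49.6 CPM with DMSO, 32.8, 33.7 and 32.0 with ipatasertib, 54.6, 60.9 and 54.7 with tazemetostat, and 30.8, 29.1 and 26.0 with both drugs. The 4 groups did not overlap. E2F7 fell by 0.64 with ipatasertib (SE 0.07, adjusted p = 3.62e-07) and by 0.84 with the combination (SE 0.07, adjusted p = 2.84e-09). From tazemetostat to the combination the fall was 0.99 (SE 0.07, adjusted p = 5.29e-10), or 49.6%, which had the greatest size among the 70 changes of these 10 genes over 7 comparisons. From ipatasertib to the combination the change was -0.20 (adjusted p = 0.0361), a call lost without ipatasertib A (adjusted p = 0.057), ipatasertib B (0.0853) or combination C (0.17), and with total-count scaling (0.0589). Tazemetostat alone gave 0.15 (adjusted p = 0.0832).

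E2F8, the other atypical repressor, read 33.1, 34.4 and 32.0 CPM with DMSO, 30.9, 31.6 and 26.8 with ipatasertib, 46.7, 42.5 and 45.1 with tazemetostat, and 29.7, 27.9 and 24.97 with both drugs. The tazemetostat libraries stood above the rest, and the ipatasertib and combination libraries overlapped. E2F8 rose by 0.43 with tazemetostat (SE 0.08, adjusted p = 0.000127). With ipatasertib alone the change was -0.15 (95% interval -0.32 to 0.01, adjusted p = 0.106), whereas the combination against tazemetostat gave -0.70 (SE 0.08, adjusted p = 1.65e-07). The combination against DMSO gave -0.27 (adjusted p = 0.00426), a call lost with total-count scaling (-0.14, adjusted p = 0.127) and without combination C (adjusted p = 0.0558).

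CCNE1, which encodes cyclin E1, read 15.7, 15.1 and 14.1 CPM with DMSO, 18.0, 17.2 and 17.5 with ipatasertib, 26.8, 25.9 and 25.9 with tazemetostat, and 21.4, 22.4 and 22.6 with both drugs. No library of any group overlapped with another group. CCNE1 rose by 0.81 with tazemetostat (SE 0.07, adjusted p = 1.42e-08), or 74.8%, and by 0.56 with the combination (SE 0.07, adjusted p = 6.01e-07). It rose by 0.23 with ipatasertib (SE 0.07, adjusted p = 0.00981), a call lost without DMSO C (adjusted p = 0.0562). On top of tazemetostat, ipatasertib instead lowered CCNE1: the combination against tazemetostat gave -0.24 (SE 0.07, adjusted p = 0.00427).

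CCNE2, which encodes cyclin E2, read 41.8, 42.8 and 44.7 CPM with DMSO, 37.2, 37.9 and 36.1 with ipatasertib, 58.4, 62.0 and 61.1 with tazemetostat, and 32.4, 37.5 and 32.4 with both drugs. Ipatasertib and combination libraries overlapped below the DMSO libraries, and tazemetostat libraries stood above. CCNE2 rose by 0.49 with tazemetostat (SE 0.07, adjusted p = 5.9e-06) and fell by 0.34 with the combination (SE 0.07, adjusted p = 0.000169). With ipatasertib it fell by 0.22 (SE 0.07, adjusted p = 0.0102), a call lost with total-count scaling (-0.10, adjusted p = 0.2) and without ipatasertib C (adjusted p = 0.0624). From tazemetostat to the combination the fall was 0.83 (SE 0.07, adjusted p = 2.41e-09). CCNE2 overlaps INTS8 on the opposite strand in GENCODE 29, and INTS8 changed by -0.51 with ipatasertib (adjusted p = 2.22e-05), 0.17 with tazemetostat (adjusted p = 0.0813) and -0.46 with the combination (adjusted p = 4.3e-05).

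**Figure D2:**
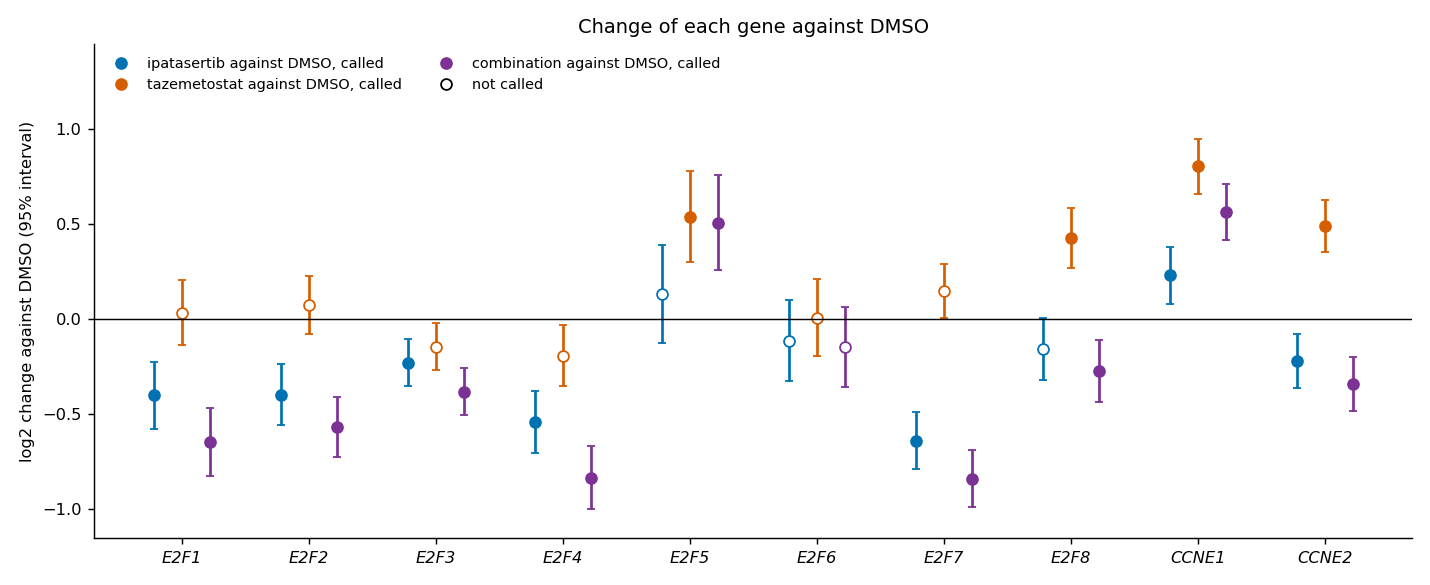
Log2 change of each gene against DMSO (vertical axis, edgeR estimate with its 95% interval) for ipatasertib, tazemetostat and the combination, with filled points for adjusted p below 0.05 and open points otherwise. With the combination 7 genes lie below 0 as filled points, and E2F5 and CCNE1 lie above 0.

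The first comparison asks what AKT inhibition did. With ipatasertib against DMSO, E2F1, E2F2, E2F3, E2F4, E2F7 and CCNE2 fell, CCNE1 rose, and E2F5, E2F6 and E2F8 did not pass the test. Thus 6 of the 10 were lower, where 28.7% of all genes tested were lower, and 1 of 10 was higher, where 25.4% of all were. The median log2 change was -0.22 for the 10 genes and -0.01 for all genes. With total-count scaling 4 were lower and 1 higher, beside 20.1% and 34.4% of all genes under that scaling.

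EZH2 inhibition went with another pattern. With tazemetostat against DMSO, E2F5, E2F8, CCNE1 and CCNE2 rose and none of the 10 fell in the fit reported. The 4 higher of 10 stood beside 25.1% of all genes, and the 0 lower beside 20.9%. The 0 depended on the setting, with E2F3 (adjusted p = 0.0517) and E2F4 (0.052) just short of the threshold. At an unadjusted edgeR p under 0.05, 2 were lower, and DESeq2 with adjustment called 2 lower. Leaving out any single ipatasertib, tazemetostat or combination library gave 1 or 2 lower, and leaving out a DMSO library gave 0. The median log2 change was 0.11, against 0.02 for all genes. Without tazemetostat A and combination B, 5 were higher and 2 lower, beside 29.3% and 28.6% of all genes.

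With the combination against DMSO, 7 of 10 were lower (34.5% of all genes), 2 were higher (36.5% of all genes), and E2F6 did not pass. The median log2 change was -0.36, against 0.02 for all genes. E2F5 and CCNE1 were the higher pair. The 3 comparisons against DMSO share the DMSO libraries. For E2F4 the values were -0.54 with ipatasertib, -0.19 with tazemetostat and -0.83 with both, and for CCNE1 they were 0.23, 0.81 and 0.56.

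The combination was then set against each drug alone. Against ipatasertib, E2F1, E2F4 and E2F7 were lower and E2F5 and CCNE1 higher, that is 3 and 2 of 10 beside 17.3% and 21.8% of all genes. The median log2 change was -0.14, against 0.01 for all genes. Without tazemetostat A and combination B, 5 were lower and 1 higher, beside 22.2% and 24.4% of all genes. Leaving out single libraries gave 2 to 5 lower, with 5 without tazemetostat A and 5 without combination A. Against tazemetostat, 8 of 10 were lower and 0 higher, beside 30.8% and 29.8% of all genes. At an unadjusted edgeR p under 0.05 and with DESeq2 0 were higher as well. The pair that did not pass was E2F5 (-0.03) and E2F6 (-0.16), and the median log2 change was -0.64, against -0.00 for all genes.

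Set directly against ipatasertib, tazemetostat gave higher levels of 8 of the 10 genes and lower levels of 0, beside 31.7% and 24.6% of all genes. Changes ranged from 0.09 for E2F3 (adjusted p = 0.222) to 0.79 for E2F7 (SE 0.07, adjusted p = 1.61e-08). CCNE2 followed with 0.71 (SE 0.07) and E2F8 with 0.58 (SE 0.08). E2F6, at 0.12, was the other gene that did not pass (adjusted p = 0.313). The count of 0 lower also held at an unadjusted edgeR p under 0.05 and with DESeq2. The E2F5 difference of 0.40 was no longer called without ipatasertib C (adjusted p = 0.0621) or tazemetostat C (0.0552).

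The effect of ipatasertib without tazemetostat was compared with its effect in cells held in tazemetostat by an interaction term, the difference of the 2 log2 changes. E2F8, CCNE1 and CCNE2 passed, each with a more negative effect of ipatasertib in tazemetostat. The difference was -0.61 for CCNE2 (SE 0.09, 95% interval -0.81 to -0.41, adjusted p = 0.000841), -0.55 for E2F8 (SE 0.11, 95% interval -0.78 to -0.32, adjusted p = 0.00679) and -0.47 for CCNE1 (SE 0.10, 95% interval -0.68 to -0.27, adjusted p = 0.00942). Thus 3 of 10 genes were lower and 0 higher, where 1.75% of all genes were lower and 1.87% higher. That share of all genes moved with the libraries that stood apart: 7.42% were lower and 8.80% higher without combination B, and 14.7% and 17.1% without tazemetostat A and combination B, where 4 of the 10 genes were lower. The count of 0 higher was the same at an unadjusted edgeR p under 0.05 and with DESeq2. All 10 estimates were below 0, with a median of -0.27 against 0.00 for all genes. The CCNE1 call was lost without ipatasertib A (adjusted p = 0.0555). E2F7 gave -0.35 (adjusted p = 0.0578), and passed without tazemetostat A and combination B (adjusted p = 0.0019), the setting in which calls over all genes rose as given above. E2F3, E2F4 and E2F6 lay between -0.10 and -0.01, none passing. CCNE1 was the gene whose ipatasertib effect passed in opposite directions, higher in all 3 ipatasertib libraries than in all 3 DMSO libraries and lower in all 3 combination libraries than in all 3 tazemetostat libraries.

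**Figure D3:**
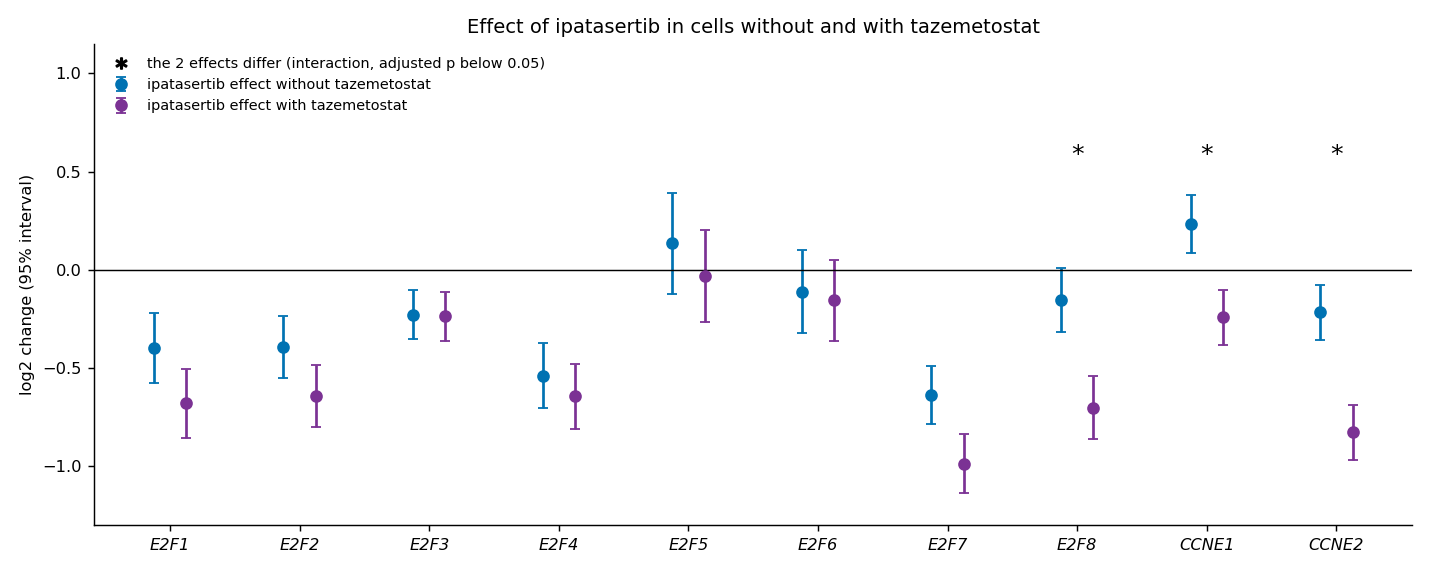
Log2 change with ipatasertib (vertical axis, edgeR estimate with its 95% interval) for each gene in cells without tazemetostat (ipatasertib against DMSO) and with it (combination against tazemetostat), with a star where the interaction had an adjusted p below 0.05. CCNE1 goes from 0.23 to -0.24 and CCNE2 from -0.22 to -0.83.

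The ratio of CCNE1 to CCNE2 counts within a library needs no scaling between libraries. It is not a ratio of molecules, because the transcripts differ in length. With DMSO the ratio was 0.374, 0.353 and 0.316, with ipatasertib 0.485, 0.455 and 0.486, with tazemetostat 0.459, 0.417 and 0.424, and with the combination 0.662, 0.597 and 0.698. Means were 0.348 ± 0.0297 (SD, n = 3), 0.475 ± 0.0176, 0.433 ± 0.0223 and 0.652 ± 0.0509 in that order. Both single-drug groups lay above all DMSO libraries and overlapped with each other, and the combination libraries lay above all others. The balance of the counts thus shifted toward CCNE1 in every treated group, and no test was made on it. Reads of INTS8, which overlaps CCNE2, may enter the denominator.

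**Figure D4:**
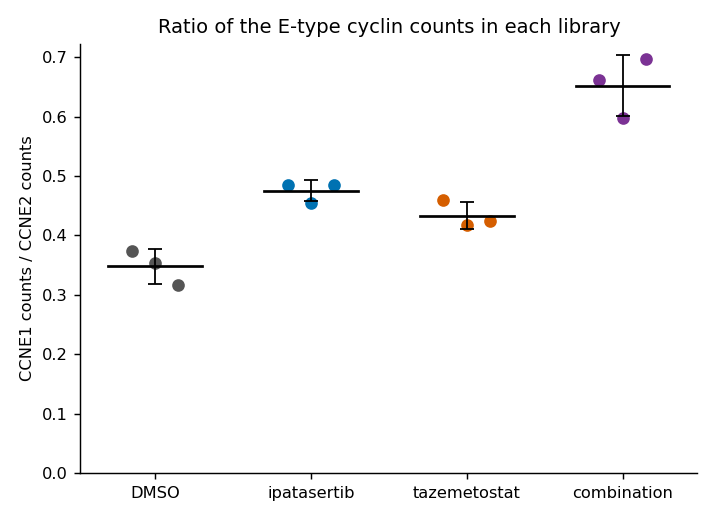
CCNE1 counts divided by CCNE2 counts (vertical axis, starting at 0) in each library, replicates A to C from left to right, with group mean (wide bar) and SD (whiskers). The combination libraries sit between 0.597 and 0.698, and the DMSO libraries between 0.316 and 0.374.

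Levels over all 12 libraries were also compared between genes by the root mean square difference of centred log2 CPM. No gene's group means spanned more than 1 on the log2 scale, the least span at which neighbours were to be named, so the following pairs were chosen after their values were seen. E2F1 and E2F2 differed from each other by 0.0672, and E2F2 was the second nearest of all genes to E2F1. CCNE2 was the nearest gene to E2F8, at 0.110, whereas the nearest to CCNE2 itself was SPC25, at 0.0765. UHRF1, a maintenance factor of DNA methylation and listed G1/S target, was the nearest to E2F7, at 0.0772. For other genes the nearest was outside both lists: C17orf89 for E2F1, PAK2 for E2F3, NCAPH2 for E2F4, RAB3IP for E2F5, USPL1 for E2F6 and FAM89A for CCNE1.

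Target genes of E2F factors at the G1/S boundary were counted from a list of 24. With ipatasertib against DMSO 22 of 24 fell and 0 rose, beside 28.7% and 25.4% of all genes. The median was -0.43, against -0.01 for all genes. With the combination 23 fell and 0 rose, beside 34.5% and 36.5% of all genes, with a median of -0.74 against 0.02. From tazemetostat to the combination all 24 fell, beside 30.8% of all genes. For this list and the mitotic list, each count of 0 given for edgeR was also 0 at an unadjusted p under 0.05 and with DESeq2. MCM10, a replication initiation factor, changed by -0.83 with ipatasertib (adjusted p = 2.8e-10), 0.08 with tazemetostat (adjusted p = 0.228) and -1.25 with the combination (adjusted p = 1.7e-13). ORC1, the origin recognition subunit, gave -0.91 (adjusted p = 1.49e-09), -0.29 (0.00136) and -1.38 (1e-12), and CDC6, which loads the MCM helicase, gave -0.83 (1.49e-09), 0.07 (0.39) and -1.07 (9.27e-12). UHRF1 gave -0.63 (1.86e-08), 0.07 (0.346) and -0.87 (5.38e-11). With tazemetostat against DMSO 5 rose and 1 fell. That count was 13 and 1 with total-count scaling (32.5% and 14.2% of all genes), and 9 and 8 without tazemetostat A and combination B (29.3% and 28.6% of all genes), against 25.1% and 20.9% in the fit reported. Leaving out a single library gave 2 or 3 that rose for each library but DMSO C, combination A and combination B, and 2 to 5 that fell for each but DMSO B and DMSO C, with 5 without tazemetostat A.

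The interaction was negative and past the threshold for 16 of the 24 G1/S targets, with none positive and a median of -0.39. All genes stood at 1.75% lower. Without tazemetostat A and combination B it was 18, where all genes stood at 14.7% lower. Leaving out single libraries gave 7 to 18: 10 without DMSO A, 8 without DMSO B, 7 without ipatasertib A, 7 without ipatasertib B, 7 without tazemetostat B, 10 without tazemetostat C and 8 without combination C. In those 7 settings 0.617% to 0.823% of all genes were lower. MCM10 gave -0.50 (adjusted p = 0.000841) and UHRF1 -0.30 (adjusted p = 0.0395), while CDC6 (-0.31, adjusted p = 0.0549) and ORC1 (-0.18, adjusted p = 0.348) did not pass.

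Summed G1/S target levels were 4118 ± 42.1 CPM (SD, n = 3) with DMSO, 3001 ± 75.5 with ipatasertib, 4475 ± 44.4 with tazemetostat and 2479 ± 84.7 with both drugs. Summed levels of 12 G2 and mitosis genes were 4167 ± 41.4, 2986 ± 18.1, 4398 ± 132 and 2779 ± 183 CPM in the same order. In the mitosis sum the ipatasertib libraries, at 2965 to 2999 CPM, overlapped with the combination libraries, at 2673 to 2990. The means of both sums ran from tazemetostat over DMSO and ipatasertib down to the combination. So did the group means of E2F1, E2F2, E2F6, E2F7, E2F8 and CCNE2, while E2F3 and E2F4 were highest with DMSO and E2F5 and CCNE1 lowest there. No step between neighbouring groups was called for E2F6. For E2F1, E2F2 and E2F7 the step from tazemetostat to DMSO was not called. In these bulk samples fewer cycling cells and less of these RNAs per cell cannot be told apart. Of the 12 mitotic genes 9 fell and 0 rose with ipatasertib, beside 28.7% and 25.4% of all genes. With the combination 10 fell and 0 rose, beside 34.5% and 36.5% of all genes. CDC20, an activator of the anaphase-promoting complex, gave -0.90 with ipatasertib (adjusted p = 1.7e-10), -0.11 with tazemetostat (adjusted p = 0.111) and -1.05 with the combination (adjusted p = 3.94e-12). For the mitotic kinase PLK1 the values were -0.72 (2.06e-09), -0.20 (0.00504) and -1.00 (4.15e-12), and for AURKA they were -0.78 (2.26e-08), -0.00 (0.982) and -1.06 (7e-11). With tazemetostat 3 of the 12 rose and 1 fell, beside 25.1% and 20.9% of all genes, so the 3 that rose were near that share. Without the 2 libraries that stood apart 6 rose and 4 fell, beside 29.3% and 28.6% of all genes. Of the 12 mitotic genes, 3 fell without tazemetostat A and 2 without combination A or combination B. The interaction was negative and past the threshold for 1, CDK1 (-0.62, adjusted p = 0.00251), against 8 without both libraries that stood apart, 6 without combination B, 2 without tazemetostat A or combination A, and 5 with total-count scaling. Over all genes the share lower in the interaction was 1.75%, against 14.7% without both libraries, 7.42% without combination B, 3.31% without tazemetostat A, 1.35% without combination A and 3.77% with total-count scaling.

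Among 11 genes of the pocket proteins, DP partners and the MuvB complex, 4 fell and 2 rose with ipatasertib, 3 rose and 0 fell with tazemetostat, and 4 fell and 2 rose with both drugs. Of all genes 28.7% fell and 25.4% rose with ipatasertib, and 25.1% rose and 20.9% fell with tazemetostat. With both drugs 34.5% of all genes fell and 36.5% rose. Near those shares were the 4 that fell with ipatasertib and with both drugs. The 2 that rose with ipatasertib and the 3 that rose with tazemetostat were near them too. With tazemetostat, 1 rose without DMSO B, tazemetostat B or tazemetostat C, and the 0 that fell were also 0 at an unadjusted edgeR p under 0.05 and with DESeq2. MYBL2, the MYB protein that joins MuvB in S phase, fell from 326 ± 16.0 CPM (SD, n = 3) with DMSO to 163 ± 7.21 with ipatasertib and 126 ± 7.71 with the combination, against 324 ± 28.4 with tazemetostat. Its changes were -1.00 (adjusted p = 4.01e-10), -1.37 (1e-12) and -0.01 (0.913). The DP partners went opposite ways: TFDP2 rose from 21.4 ± 1.16 CPM with DMSO to 46.4 ± 0.411 with ipatasertib and 41.9 ± 1.88 with the combination, while TFDP1 changed by -0.37 (adjusted p = 6.69e-06) and -0.51 (3.16e-08). The TFDP2 changes were 1.11 (adjusted p = 2.62e-10) and 0.96 (4.79e-10). RBL1, which encodes p107, gave -0.38 with ipatasertib (adjusted p = 4.65e-05) and -0.74 with the combination (2.89e-09). RBL2, which encodes p130, was the other gene that rose in both (0.43, adjusted p = 8.64e-06, and 0.48, adjusted p = 9.73e-07). RB1 itself changed by -0.04 with ipatasertib (adjusted p = 0.676), 0.37 with tazemetostat (0.00111) and 0.15 with the combination (0.114).

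In the list of 11 genes around cyclin E and CDK2, 5 fell and 3 rose with ipatasertib, 2 fell and 4 rose with tazemetostat, and 4 fell and 4 rose with both drugs. With both drugs these counts were near the shares over all genes, 34.5% lower and 36.5% higher. Also near were the 3 that rose with ipatasertib (25.4% of all genes) and the 2 that fell with tazemetostat (20.9%). The 5 that fell with ipatasertib stood beside 28.7% of all genes, and the 4 that rose with tazemetostat beside 25.1%. Without DMSO A, 3 fell with ipatasertib, as with total-count scaling, and without DMSO B, 2 rose with tazemetostat. The catalytic partner CDK2 fell in all 3 treated groups, with -0.60 for ipatasertib (adjusted p = 4.25e-08), -0.19 for tazemetostat (0.0104) and -1.12 for the combination (1.7e-12). CDC25A, the phosphatase that activates it, changed by -1.20 (1.32e-11), -0.24 (0.00304) and -1.69 (2.12e-14). CDKN1C, the CDK inhibitor p57, was near the detection limit at 0.414 ± 0.167 CPM with DMSO and rose to 2.76 ± 0.574 with the combination (2.75, adjusted p = 5.98e-08). SKP1, a subunit of the ubiquitin ligase that degrades cyclin E, rose by 0.34 with ipatasertib (0.00188), by 0.23 with tazemetostat (0.0273) and by 0.46 with the combination (5e-05). Also in this list, and named after their values were seen, CDKN1A (p21) stood at 28.1 ± 1.05 CPM with DMSO, 12.9 ± 0.664 with ipatasertib, 66.3 ± 7.24 with tazemetostat and 34.8 ± 5.95 with both drugs, and CDKN1B (p27) rose by 0.37 with ipatasertib (adjusted p = 4.4e-05) and by 0.30 with the combination (0.000169).

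Upstream of RB, 6 of 9 listed D cyclins, CDK4/6 genes and INK4 inhibitors passed the filter. CDKN2A and CDKN2B had 0 counts in every library, which allows up to 0.130 CPM in the shallowest, and CCND2 was too low to test. With tazemetostat 1 of the 6 fell and 2 rose, near the shares of all genes, 20.9% and 25.1%. With ipatasertib 4 fell and 0 rose (28.7% and 25.4% of all genes), and with the combination 4 fell and 0 rose (34.5% and 36.5%). DESeq2 called 1 higher with ipatasertib and 0 with the combination, as did an unadjusted edgeR p under 0.05. CCND1, the cyclin D1 gene, fell from 389 ± 9.91 CPM with DMSO to 160 ± 2.78 with ipatasertib, rose to 530 ± 5.45 with tazemetostat and stood at 209 ± 13.0 with both drugs. Its changes were -1.28 (adjusted p = 6.33e-13), 0.45 (1.64e-06) and -0.90 (1.83e-11), and the interaction did not pass (-0.06, adjusted p = 0.742). CDK6 gave -0.67, -0.42 and -1.04 in the same order (9.36e-08, 4.9e-05 and 5.36e-11). CCND3 fell by 0.63 with ipatasertib (1.89e-06) and by 0.81 with the combination (2.65e-08), and CDK4 fell by 0.22 (0.00577) and 0.42 (5.53e-06).

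Of 5 genes for turnover of E2F proteins, 3 fell with ipatasertib, 3 with tazemetostat and 4 with both drugs, and 0 rose. The count of 0 was also 0 with DESeq2 and at an unadjusted edgeR p under 0.05. Over all genes 28.7%, 20.9% and 34.5% fell in that order, and 25.4%, 25.1% and 36.5% rose. CCNF, cyclin F of the ligase that targets activator E2Fs, fell from 120 ± 8.05 CPM with DMSO to 77.2 ± 1.43 with ipatasertib, 102 ± 5.96 with tazemetostat and 53.1 ± 4.46 with both drugs. SKP2, an F-box protein, fell by 0.26 with ipatasertib (adjusted p = 0.00135) and by 0.75 with the combination (2.39e-09), gave 0.00 with tazemetostat (0.965), and was the member of this list past the threshold in the interaction (-0.49, adjusted p = 0.00344).

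**Figure D5:**
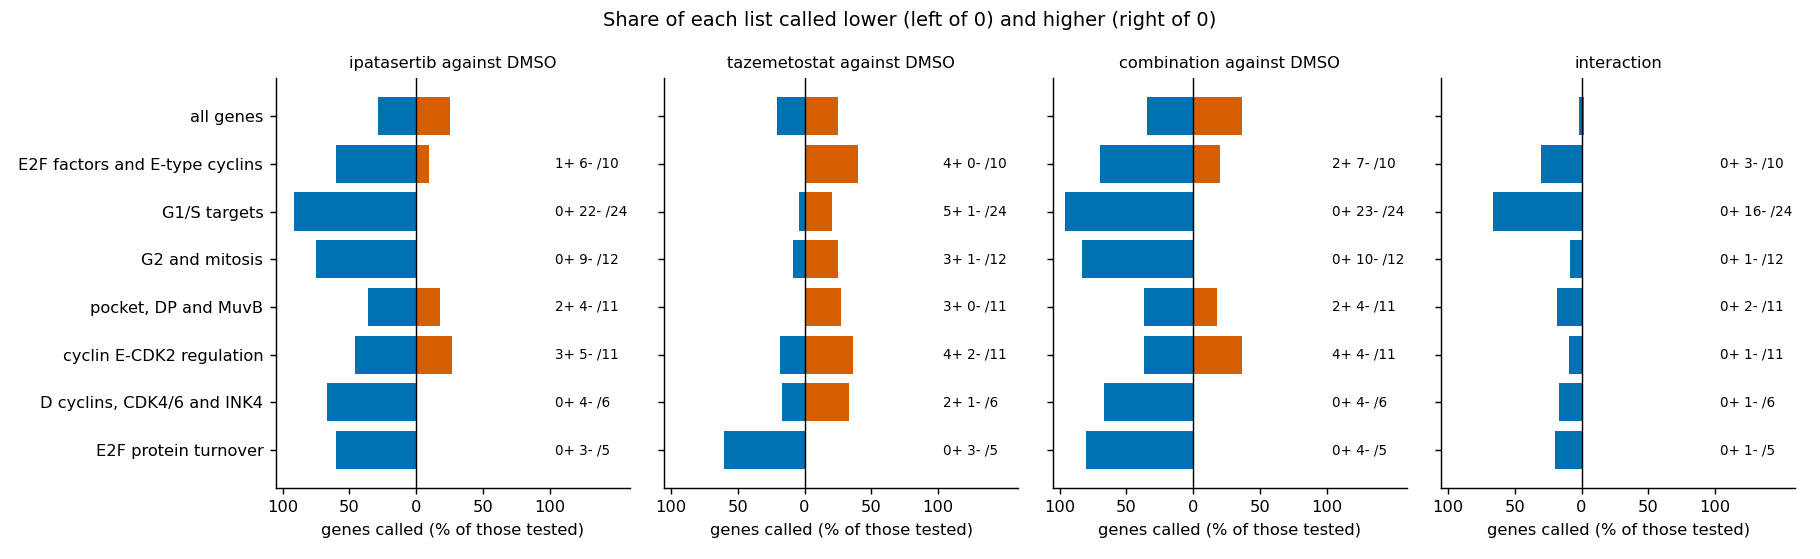
Percent of the tested genes of each list called lower (left of 0) or higher (right of 0) in 4 comparisons, with the counts higher (+), lower (-) and tested (/) beside each bar, and all 14874 genes on top. In the interaction 16 of 24 G1/S targets and 3 of 10 E2F and cyclin E genes were called lower, with 0 called higher in either list.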

How the data were processed

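PolyA RNA of 12 SUM149PT libraries was measured. The authors deposited raw counts of reads per gene, and the submitters' processing notes name STAR, SAMtools, HTSeq, DESeq2 and the build hg19; the sources used here give no versions, annotation or strand setting. The 5 summary lines of each file held 29.8 to 38.6% of reads and stayed out of library sizes. A deposited normalised table was not used here. Counts were fitted with edgeR 4.0.16 (R 4.3.3, limma 3.58.1): filterByExpr, TMM, glmQLFit and glmQLFTest, 12 libraries in 1 fit without a block, Benjamini-Hochberg adjustment over 14874 genes and a threshold of 0.05. TMM factors were 0.942 to 1.05. Standard errors are the change over the square root of F, and 95% intervals use the moderated degrees of freedom. The procedure was run on simulated counts with the same dispersion for every gene, and only for ipatasertib against DMSO. That run covered neither the interaction nor libraries that stand apart from their replicates. CPM and the cyclin ratio have no interval for counting error beyond the replicate SD.

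The genes and lists were chosen with earlier results of these data known. The rule named all 10 genes and, per list, up to 4 with the lowest adjusted p in the combination against DMSO, plus genes counted out singly. RB1, CDKN1A and CDKN1B were named outside that rule. Replicate letters were checked for pairing: correlations of deviations were -0.0665 to 0.302 in 18 same-letter pairs, 2 of them over 0.1, so letters were not taken as pairs. Alternatives were RLE and total-count scaling, other filters, DESeq2 1.42.0, a replicate block, only the libraries compared, each library left out, and both libraries that stood apart left out, the last chosen after seeing the data. Promoters are RefSeq's on GRCh38.p14, and gene overlaps are from GENCODE 29, both another build than hg19.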

Additional observations from a re-analysis of the deposited data

Results flagged for a closer look

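The effect of ipatasertib differed between cells without and with tazemetostat, by the edgeR interaction test with Benjamini-Hochberg adjustment, for 3 of the 10 genes. The difference was -0.61 for CCNE2 (adjusted p = 0.000841), -0.55 for E2F8 (adjusted p = 0.00679) and -0.47 for CCNE1 (adjusted p = 0.00942). Over the alternatives that left out single libraries the CCNE2 difference ranged from -0.67 to -0.56 and the CCNE1 difference from -0.50 to -0.44. For CCNE1 the sign of the ipatasertib effect also changed, from 0.23 to -0.24.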

How the results depend on the processing

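Of 70 results (10 genes in 7 comparisons), 44 were called, and none of these 44 changed direction under any alternative run. The call was kept under every alternative by 35 and lost under at least 1 by 9. Among 1390 alternative values, 1276 kept direction and side of the threshold, 22 lost a call, 58 gained 1 and 34 changed sign, all near 0 and uncalled. The cause was not tested, except that fewer libraries enter when some are left out.

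Of the 10 genes, those lower with tazemetostat against DMSO numbered 0 in the fit reported and with total-count scaling. Leaving out a single DMSO library gave 0, and leaving out any other single library gave 1 or 2. They numbered 1 without a filter or with at least 1 CPM in 6 libraries. With RLE scaling, DESeq2, only the libraries compared, or without tazemetostat A and combination B, they numbered 2. Those lower with the combination against ipatasertib numbered 3 but 5 without a filter, with DESeq2 or without both of those libraries, and 1 with only the libraries compared (single libraries 2 to 5). Those higher there numbered 2, and 1 without both (single libraries 1 to 2). Those higher with ipatasertib against DMSO ranged from 0 to 1 over single libraries. With the replicate block, 1 of the genes was lower with tazemetostat against DMSO, where E2F4 gained a call (-0.19, adjusted p = 0.0262, edgeR), and E2F7 gained 1 in the interaction (-0.35, adjusted p = 0.0338). The block changed no other call of these genes. Each of 6 of the 12 libraries correlated best with its own letter.

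Values that changed sign were these. With total-count scaling, E2F6 gave 0.0044 with ipatasertib against DMSO, and E2F5 gave 0.033 in the combination against tazemetostat. With at least 1 CPM in 6 libraries, that E2F5 value was 0.015 and the E2F3 interaction 0.00095. E2F6 with tazemetostat against DMSO gave -0.0062 with RLE scaling and -0.0071 with DESeq2. Without tazemetostat A and combination B, E2F1 gave -0.050 with tazemetostat against DMSO and the E2F4 interaction was 0.054. Over single libraries left out, tazemetostat against DMSO ranged from -0.067 to 0.051 for E2F1, from -0.011 to 0.093 for E2F2 and from -0.087 to 0.11 for E2F6. In the same way the combination against ipatasertib ranged from -0.13 to 0.0048 for E2F6, the combination against tazemetostat from -0.086 to 0.089 for E2F5, and the interaction from -0.027 to 0.048 for E2F3 and from -0.14 to 0.041 for E2F6.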
